A study of Mus musculus with 12 samples.

Results

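The BCL2 family decides whether the outer membrane of mitochondria stays closed or opens and releases cytochrome c, the step that commits a cell to intrinsic apoptosis. Survival members such as Mcl1, Bcl2l1 (BCL-XL) and Bcl2 hold the effector proteins BAX and BAK1 in check, and BH3-only proteins such as PUMA (Bbc3), NOXA (Pmaip1), BIM (Bcl2l11), BID and BAD either occupy the survival proteins or engage the effectors directly. Hepatocytes depend on MCL1 and BCL-XL, and the family's BH3-only genes are among those through which endoplasmic reticulum (ER) stress can lead to cell death.

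The transcripts of 10 family members were followed in mouse liver. They were taken by symbol from a deposited expression table of 27109 loci, 23951 of them with a gene name: 5 BH3-only genes (Bbc3, Pmaip1, Bcl2l11, Bid and Bad), 2 effectors (Bak1 and Bok) and 3 survival genes (Mcl1, Bcl2l1 and Bcl2). Each symbol stood at 1 locus, so all 10 members have a value. The effector gene Bax is not one of the 10 and is given beside them.

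Livers came from C57BL/6 mice that were wild type or carried the knockout labelled LsATF4-KO, which the study describes as a loss of ATF4. ATF4 is a transcription factor whose protein is made when ER stress slows general translation, and the study asked what its loss does to liver gene expression at rest and under ER stress. Mice of either genotype were injected intraperitoneally with tunicamycin at 1 mg/kg, an inhibitor of N-linked protein glycosylation that produces ER stress, or with the vehicle, 0.3% DMSO, and livers were collected after 6 h. Each of the 4 combinations of genotype and injection had 3 libraries of poly(A)-selected RNA. The labels do not say whether each library is 1 mouse, and neither the driver of the deletion nor the age or sex of the mice is stated in them. The 3 knockout DMSO libraries were read on lane 5 and all 9 remaining ones on lane 4. In every comparison with the knockout DMSO group, lane and group cannot be told apart.

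The deposited table gives levels as FPKM, in which the fragments of a transcript are divided by its length and by the size of the library, and it holds 1 pooled value per group. No value per library was used, so no SD can be given, no library can be left out, and the depth behind each value is unknown. Where an interval is given, it is a 95% interval of the log2 difference that rests on the test statistic in the authors' deposited table. A gene was called higher or lower when its q-value in that table was under 0.05, and "rose" and "fell" are used of such genes alone. In whole liver, fewer cells of a type and less RNA per cell cannot be told apart.

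The locus that holds Atf4 was merged with Cacna1i in the table and stood at 46.9 FPKM (wild type) and 22.8 FPKM (knockout) after DMSO, and at 356 and 114 FPKM after tunicamycin. Its difference between genotypes was called with tunicamycin, at -1.64 on the log2 scale, and was -1.04 without a call with DMSO (q = 0.270 in the authors' deposited table). The locus rose with tunicamycin in both genotypes, by 2.92 in wild type and by 2.32 in the knockout, so signal at the locus was not absent from the knockout. Of 8 hepatocyte markers, Alb is listed at 0 in all 4 groups, although it is among the most abundant liver transcripts. Its status is HIDATA in all 4 comparisons, without a test, so the 0 is not read as a level. The other 7 were abundant. The hepatocyte list summed to 21021 FPKM after DMSO and 13178 FPKM after tunicamycin in wild type, and to 16941 and 10791 FPKM in knockout livers. Of the 7 tested with tunicamycin, 1 was called lower in wild type, 2 in the knockout and 0 higher in either. Tat read higher with tunicamycin without a call, at 1106 and 2018 FPKM in wild type and 1077 and 1606 FPKM in the knockout. The 7 endothelial markers summed to 45.1, 69.5, 77.6 and 54.3 FPKM in the same order, and all 7 were called higher in the knockout than in wild type with DMSO. The calls of Stab2, Tek, Lyve1 and Pecam1 (q = 0.00961 to 0.0304 in the authors' deposited table) are lost when q is adjusted within that comparison alone. Markers of muscle, adrenal gland and fat, tissues outside the liver, summed to at most 3.79, 23.0 and 3.42 FPKM in the first 3 groups and to 281, 1019 and 99.4 FPKM in the knockout with tunicamycin. Of those tested, 3 of 6, 1 of 5 and 2 of 3 rose with tunicamycin in the knockout. The adrenal marker Star, at 0.641 and 232 FPKM there, was not called (q = 0.222 in the authors' deposited table). From pooled values it cannot be told whether every library of that group carried these transcripts. The 9 lymphocyte markers summed to 3.02 to 5.18 FPKM.

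The promoters of the 3 BH3-only genes that fell with tunicamycin, and that of Bax, which differed between genotypes, are shown first because the values below turn on these genes. Each window is 300 bases, from 250 before to 50 after a transcription start in RefSeq on build GRCm38.p6, written 5′ to 3′ on the gene's strand. RefSeq gives several start sites for Bbc3 (3 windows) and Bad (2 windows), and for each the window with the most motif matches is shown. The Bbc3 window is chr7:16310181-16310480 on the plus strand, that of Bid chr6:120916775-120917074 on the minus strand, that of Bad chr19:6941611-6941910 on the plus strand and that of Bax chr7:45466849-45467148 on the minus strand. Capitals mark matches, on either strand, to any of the motifs named after the sequences.
Bbc3: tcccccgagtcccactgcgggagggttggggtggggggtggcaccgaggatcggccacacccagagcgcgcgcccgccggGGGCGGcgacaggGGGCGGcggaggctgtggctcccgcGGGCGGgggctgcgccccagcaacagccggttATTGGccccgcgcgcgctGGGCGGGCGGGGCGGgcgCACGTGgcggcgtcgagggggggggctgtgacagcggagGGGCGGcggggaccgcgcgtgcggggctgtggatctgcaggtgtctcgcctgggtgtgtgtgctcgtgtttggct
Bid: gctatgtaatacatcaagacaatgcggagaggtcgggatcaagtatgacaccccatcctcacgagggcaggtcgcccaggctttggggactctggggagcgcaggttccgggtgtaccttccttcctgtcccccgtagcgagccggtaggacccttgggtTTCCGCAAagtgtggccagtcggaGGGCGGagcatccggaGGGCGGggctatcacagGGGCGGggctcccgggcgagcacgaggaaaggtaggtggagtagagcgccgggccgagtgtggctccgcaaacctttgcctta
Bad: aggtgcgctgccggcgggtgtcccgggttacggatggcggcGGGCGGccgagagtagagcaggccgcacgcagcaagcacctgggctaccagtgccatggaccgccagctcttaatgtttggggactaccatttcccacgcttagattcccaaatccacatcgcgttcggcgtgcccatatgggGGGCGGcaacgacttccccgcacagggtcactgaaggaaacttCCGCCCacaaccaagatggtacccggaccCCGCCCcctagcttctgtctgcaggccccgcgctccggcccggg
Bax: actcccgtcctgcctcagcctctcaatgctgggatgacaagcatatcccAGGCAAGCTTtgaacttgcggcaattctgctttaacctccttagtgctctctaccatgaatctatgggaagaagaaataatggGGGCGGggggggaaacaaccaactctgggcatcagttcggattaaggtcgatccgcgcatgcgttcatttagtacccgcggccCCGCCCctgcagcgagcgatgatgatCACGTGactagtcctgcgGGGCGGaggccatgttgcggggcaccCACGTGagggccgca

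The motifs searched were the C/EBP-ATF response element TGATGNAAT, to which ATF4 and its partners are known to bind, the ER stress response element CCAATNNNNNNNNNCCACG, the cyclic AMP response element TGACGTCA, the CCAAT box CCAAT (also the start of the ER stress response element), the E-box CACGTG, the C/EBP core TTGCNNAA, the GC box GGGCGG and the p53 half-site and full site. The Bbc3 window holds 7 GC boxes, 1 CCAAT box and 1 E-box. The Bid window holds 3 GC boxes and 1 C/EBP core, and the Bad window 4 GC boxes. The Bax window holds 3 GC boxes, 2 E-boxes and 1 p53 half-site. These matches describe letters and show no binding.

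RefSeq windows of 9 of the 10 members were searched, 15 windows in all, and were set against 32851 windows of all genes. Windows on chromosome 18, where Pmaip1 lies, were left out of the members' set, so Pmaip1 was not searched. None of the 15 held the C/EBP-ATF response element, the ER stress response element or the cyclic AMP response element, which stood in 0.965%, 0.119% and 1.79% of all windows. The GC box was in 10 of the 15 windows, belonging to 7 members, and in 35.7% of all windows. The CCAAT box was in windows of Bad (the one not shown), Bbc3 and Bcl2l11 and in 37.4% of all, the E-box in 1 Bbc3 window and 7.15% of all, and the C/EBP core in the Bid window and 10.8% of all. The p53 half-site stood in 8.36% of all windows and the full site in 0.0731%, and neither stood in any of the 15 windows. For Pmaip1 the presence of these motifs is unknown. The GC content of the members' windows ran from 49.3% to 78.0% with a median of 65.7%, beside a median of 52.7% over all windows.

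In wild-type liver with DMSO the survival gene Mcl1 had the highest level of the 10 members, at 43.7 FPKM. Bad with 17.9 and Bcl2l1 with 17.6 FPKM followed, then Bid with 12.2, Bak1 with 7.77, Bok with 5.45, Bbc3 with 5.12 and Bcl2l11 with 2.26 FPKM. Pmaip1 and Bcl2 were under 1 FPKM in all 4 groups. Bax stood at 33.7 FPKM, above both effectors among the 10. Levels of different genes are compared per length of transcript, and with 1 value per group the order of neighbours such as Bad and Bcl2l1 has no spread to be read against.

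**Figure D1:**
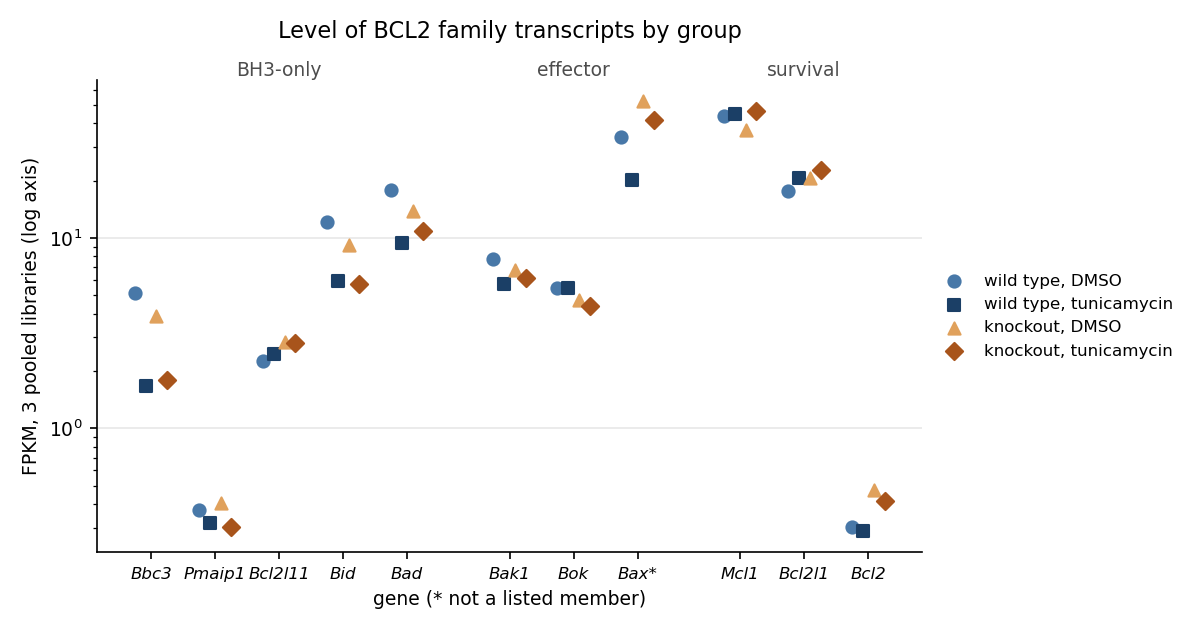
Level of each BCL2 family transcript (log axis, FPKM) in the 4 groups, 1 point per group of 3 pooled libraries, arranged by role; Bax is not one of the 10 members. The DMSO points of Bbc3 and Bid lie above both tunicamycin points, while the 4 points of Mcl1 lie between 36.7 and 46.4 FPKM.

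With tunicamycin 3 BH3-only transcripts fell in wild-type liver, Bbc3, Bid and Bad, and 2 of these, Bbc3 and Bid, fell in the knockout. No effector or survival member was called in either genotype, and no member was called higher. Bbc3, which encodes PUMA, the BH3-only protein that binds all main survival proteins and is known as a p53 target, showed the widest range of the members. Its level was 5.12 FPKM after DMSO and 1.68 FPKM after tunicamycin in wild-type livers, and 3.90 and 1.80 FPKM in knockout livers (chr7:16894932-16903683 in mm9, the build of all locus positions). Both tunicamycin groups were low and close to each other, and both DMSO groups were more than 2 times as high. In wild type Bbc3 fell 3.05-fold, a log2 difference of -1.61 (SE 0.32, interval -2.24 to -0.98, q = 0.000396 in the authors' deposited table, the smallest q there). In knockout livers it fell by 1.12 on the log2 scale (SE 0.33, interval -1.75 to -0.48, q = 0.00678 in the authors' deposited table).

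Bid encodes the BH3-only protein that caspase-8 cleaves to carry death-receptor signals to mitochondria, a route on which hepatocytes are known to depend for FAS-induced death. Its 4 levels were 12.2 FPKM after DMSO and 5.95 FPKM after tunicamycin in wild-type livers, and 9.14 and 5.74 FPKM in knockout livers (chr6:120842999-120866873). As for Bbc3, the tunicamycin groups were the low ones in both genotypes. Bid fell by 1.04 in wild type (SE 0.24, interval -1.50 to -0.57, q = 0.000396 in the authors' deposited table) and by 0.67 in the knockout (SE 0.24, interval -1.14 to -0.20, q = 0.0259 there), on the log2 scale. The knockout call of Bid is lost at q under 0.01 or with a minimum of 2-fold.

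Bad encodes a BH3-only protein held inactive by phosphorylation downstream of growth factors and insulin, which binds BCL-XL and BCL2. It stood at 17.9 FPKM after DMSO and 9.37 FPKM after tunicamycin in wild-type livers, and 13.8 and 10.9 FPKM in knockout livers (chr19:7012560-7026395). The tunicamycin groups were again the lower pair, with a smaller gap in the knockout. Bad fell by 0.93 in wild type (SE 0.33, interval -1.58 to -0.28, q = 0.0278 in the authors' deposited table), a call lost at q under 0.01 or with a minimum of 2-fold. Its knockout difference was -0.34, with an interval from -1.01 to 0.32, and was not called (q = 0.544 in the authors' deposited table). The table gives Gpr137 the same interval as Bad, and Gpr137 read 9.94, 6.10, 9.58 and 6.32 FPKM in the order wild type DMSO and tunicamycin, knockout DMSO and tunicamycin, without a call. The sources used here do not state counting by strand, so reads of both genes may not be fully separated.

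The other BH3-only members gave no call. Bcl2l11 encodes BIM, which binds all main survival proteins and activates BAX and BAK1. Its 4 levels lay between 2.26 and 2.84 FPKM (chr2:127951774-127988283), lowest in wild type with DMSO and highest in the knockout with DMSO. Its tunicamycin difference was 0.12 in wild type (interval -0.42 to 0.65) and -0.01 in the knockout (interval -0.53 to 0.51), so that a change of up to about 1.57-fold upward in wild type lies inside the interval. Pmaip1, which encodes NOXA, the BH3-only protein that binds MCL1 and is known as a stress-induced gene, was at 0.302 to 0.403 FPKM in the 4 groups (chr18:66618258-66625212). It was not tested in any of the 4 comparisons used from the authors' deposited table, and its pooled values differed by at most 1.33-fold.

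The effectors among the 10 gave no call. Bak1, whose product sits in the outer mitochondrial membrane and forms pores on activation, stood at 7.77 FPKM after DMSO and 5.74 FPKM after tunicamycin in wild-type livers, and 6.75 and 6.18 FPKM in knockout livers (chr17:27154876-27173323). Its tunicamycin difference was -0.44 in wild type (interval -1.003 to 0.13, q = 0.302 in the authors' deposited table) and -0.13 in the knockout (interval -0.72 to 0.47). The overlapping gene Ggnbp1 was listed at the same interval and fell in both genotypes, by 1.43 and 1.57 on the log2 scale. Bok, an effector that acts largely apart from the survival proteins and whose protein is kept low by degradation at the ER, stood at 5.45, 5.47, 4.72 and 4.38 FPKM in the same group order (chr1:95582082-95592348). The 2 knockout groups were the lower ones, without a call, and the tunicamycin differences of Bok were 0.01 (interval -0.60 to 0.61) and -0.11 (interval -0.76 to 0.55).

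The survival genes among the 10 gave no call with tunicamycin either. Mcl1, a short-lived protein that binds BIM, NOXA, PUMA and BAK1 and on which adult hepatocytes depend, stood at 43.7 FPKM after DMSO and 45.0 FPKM after tunicamycin in wild-type livers, and 36.7 and 46.4 FPKM in knockout livers (chr3:95462643-95467277). The DMSO knockout group, read on its own lane, was the lowest, and the other 3 lay close together. The tunicamycin difference of Mcl1 was 0.04 in wild type (interval -0.34 to 0.42, q = 0.932 in the authors' deposited table) and 0.34 in the knockout (interval -0.04 to 0.71, q = 0.214 there).

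Bcl2l1, whose product BCL-XL holds BAX and BAK1 inactive in hepatocytes, stood at 17.6, 20.8, 20.5 and 22.9 FPKM in the same group order (chr2:152579909-152657464). It was lowest in wild type with DMSO, and its tunicamycin differences were 0.24 (interval -0.15 to 0.63) and 0.16 (interval -0.23 to 0.54). Bcl2, the founding survival gene and one that hepatocytes express little of, read 0.302, 0.289, 0.476 and 0.415 FPKM (chr1:108434755-108610867). Its test was run in the knockout, with a difference of -0.20 (interval -0.91 to 0.51), and not in wild type.

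Beside these counts stand those of all loci tested. In wild type 8 members were tested and 3 were called, all 3 lower, where 37.1% of 14998 tested loci were called, 19.0% lower and 18.1% higher. In the knockout 9 members were tested and 2 were called, both lower, where 33.0% of 15534 loci were called, 14.8% lower and 18.1% higher. The calls fell on 3 of 4 tested BH3-only members in wild type and on 2 of 4 in the knockout, and on none of the tested effectors and survival genes (4 in wild type, 5 in the knockout; none had an unadjusted Cuffdiff p under 0.05 either). The median log2 difference of the tested BH3-only members was -0.98 in wild type and -0.51 in the knockout. For the effectors it was -0.22 and -0.12, for the survival genes 0.14 and 0.16, and over all tested loci -0.02 and 0.01. With so few members in a role these medians are a description. The contrast of roles holds for the 10 listed members alone. Outside them, the effector Bax fell by 0.75 in wild type and was not called in the knockout. The survival gene Bcl2l2, merged with Pabpn1 at its locus, fell by 0.71 and by 0.64. Among BH3-only genes outside the 10, Bmf fell in both genotypes and Bik in wild type.

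**Figure D2:**
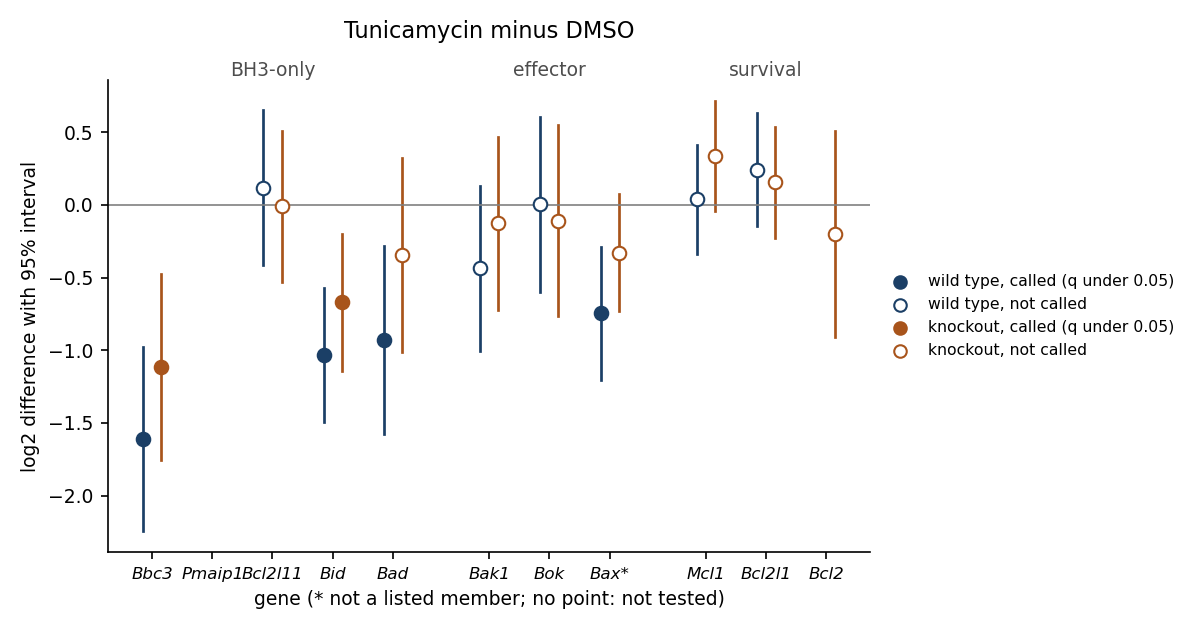
Log2 difference of tunicamycin against DMSO for each tested member and Bax in both genotypes, with 95% intervals from the test statistic in the authors' deposited table; filled points passed q under 0.05. The filled points are Bbc3, Bid, Bad and Bax in wild type and Bbc3 and Bid in the knockout, all below 0.

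Summed by role, BH3-only transcripts were at 37.8 FPKM after DMSO and 19.8 FPKM after tunicamycin in wild-type livers, and at 30.1 and 21.5 FPKM in knockout livers. Survival transcripts summed to 61.6, 66.01, 57.8 and 69.7 FPKM in the same order, and the 2 effectors to 13.2, 11.2, 11.5 and 10.6 FPKM. The ratio of the BH3-only sum to the survival sum was 0.614 with DMSO and 0.299 with tunicamycin in wild type, and 0.521 and 0.309 in the knockout. The ratio was thus lower in both tunicamycin groups than in either DMSO group.

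The sums are carried by few genes. Bid and Bad made up 76.2% to 79.5% of the BH3-only sum and Mcl1 made up 63.6% to 71.0% of the survival sum. Without Bad the ratio read 0.324, 0.157, 0.282 and 0.153, and without Bid 0.416, 0.209, 0.363 and 0.227, with the same order of DMSO above tunicamycin in each genotype. The sums hold the listed members alone. The survival gene Bcl2l2, merged with Pabpn1 at its locus, is outside them. It read 64.0, 39.2, 71.8 and 46.2 FPKM in the same order and fell with tunicamycin in both genotypes. The BH3-only genes Bmf and Bik, given below, are outside them too. The sums and ratios therefore depend on which genes are listed. These ratios compare messenger RNA, have no error of their own, and were not tested. The hepatocyte marker sum given above was also lower in both tunicamycin groups, with 1 and 2 of its 7 tested genes called lower. Its part in the result was not tested.

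**Figure D3:**
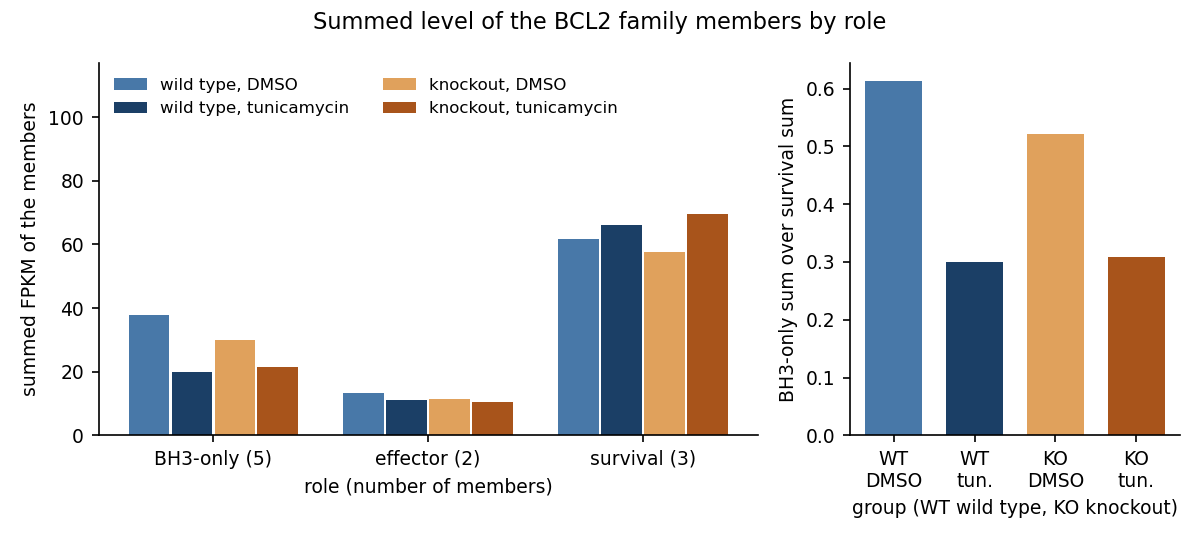
Summed FPKM of the BH3-only, effector and survival members in each group (left, bars from 0) and the ratio of the BH3-only to the survival sum (right), 1 pooled value per group and no error bars. The ratio stands at 0.614 and 0.521 with DMSO and at 0.299 and 0.309 with tunicamycin.

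Whether the tunicamycin response itself differed between genotypes was tested as the difference of both log2 differences. It was 0.49 for Bbc3 (SE 0.46, interval -0.41 to 1.39), 0.36 for Bid (SE 0.34, interval -0.29 to 1.02) and 0.59 for Bad (SE 0.47, interval -0.34 to 1.52), each in the sense of a smaller fall in the knockout. None of the 8 members tested was called from the Cuffdiff statistics, and none had an unadjusted p under 0.05, while 1.01% of 14510 loci were called. The call of Bad in wild type and not in the knockout is therefore not a difference that this test shows, and its interval also includes a smaller fall by as much as 1.52 on the log2 scale. The knockout response compares libraries of lane 4 with those of lane 5, so here too the lane cannot be told apart from the treatment.

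Between genotypes no member was called. With DMSO, 9 members were tested in the authors' deposited table by Cuffdiff, 0 were called and 0 had an unadjusted p under 0.05, where 2.86% of 14788 loci were called. With tunicamycin, 8 members were tested, 0 were called and 0 had an unadjusted p under 0.05, where 5.92% of 14919 loci were called. The closest to a call was Bid with DMSO, at -0.42 on the log2 scale (interval -0.85 to 0.02, q = 0.172 in the authors' deposited table). Bcl2 followed at 0.66 (interval -0.08 to 1.39, q = 0.189 there).

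The remaining differences with DMSO were -0.39 for Bbc3 (interval -0.94 to 0.16), -0.37 for Bad, -0.25 for Mcl1, -0.21 for Bok, -0.20 for Bak1, 0.23 for Bcl2l1 and 0.33 for Bcl2l11. With tunicamycin the differences of the 8 tested members lay between -0.32 for Bok (interval -0.95 to 0.31) and 0.21 for Bad, and Bcl2, not tested there, was at 0.52 from 0.415 against 0.289 FPKM. The endothelial markers, all 7 higher in the knockout DMSO group, and the muscle, adrenal and fat markers of the knockout tunicamycin group moved with these comparisons, and their part was not tested.

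Bax, the effector that moves from the cytosol to mitochondria on activation and a known p53 target, was called between genotypes with both injections, as no other gene among the 10 members and the wider family list was. It stood at 33.7 FPKM after DMSO and 20.1 FPKM after tunicamycin in wild-type livers, and 52.2 and 41.5 FPKM in knockout livers (chr7:52716920-52722268). Both knockout groups were above both wild-type groups. Knockout exceeded wild type by 1.05 on the log2 scale with tunicamycin (SE 0.22, interval 0.62 to 1.48, 2.07-fold, q = 0.000396 in the authors' deposited table) and by 0.63 with DMSO (SE 0.22, q = 0.0168 there). The call with DMSO is lost when q is adjusted within that comparison alone, and that with tunicamycin is not. Of all tested loci, 3.73% were called higher in the knockout with tunicamycin and 1.39% with DMSO.

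With tunicamycin all libraries of both genotypes were read on lane 4. The muscle, adrenal and fat markers that stood high in that knockout group summed to 0.696, 6.65 and 3.42 FPKM in the DMSO knockout group and to 0.506, 8.62 and 0.205 FPKM in the DMSO wild-type group. The fat marker Cfd was called higher in the knockout with DMSO, at 2.75 against 0.182 FPKM. That call too is lost when q is adjusted within the comparison. The endothelial markers were higher there as well. The part of these markers in the Bax result was not tested. Tunicamycin lowered Bax by 0.75 in wild type (SE 0.23, q = 0.00553 in the authors' deposited table), and in the knockout the difference was -0.33 (interval -0.73 to 0.07). The difference of both responses was 0.42 (interval -0.19 to 1.02) and was not called. With Bax included, the effector sum was 46.9, 31.3, 63.7 and 52.1 FPKM in the usual order, so that Bax carried most of the effector messenger RNA.

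**Figure D4:**
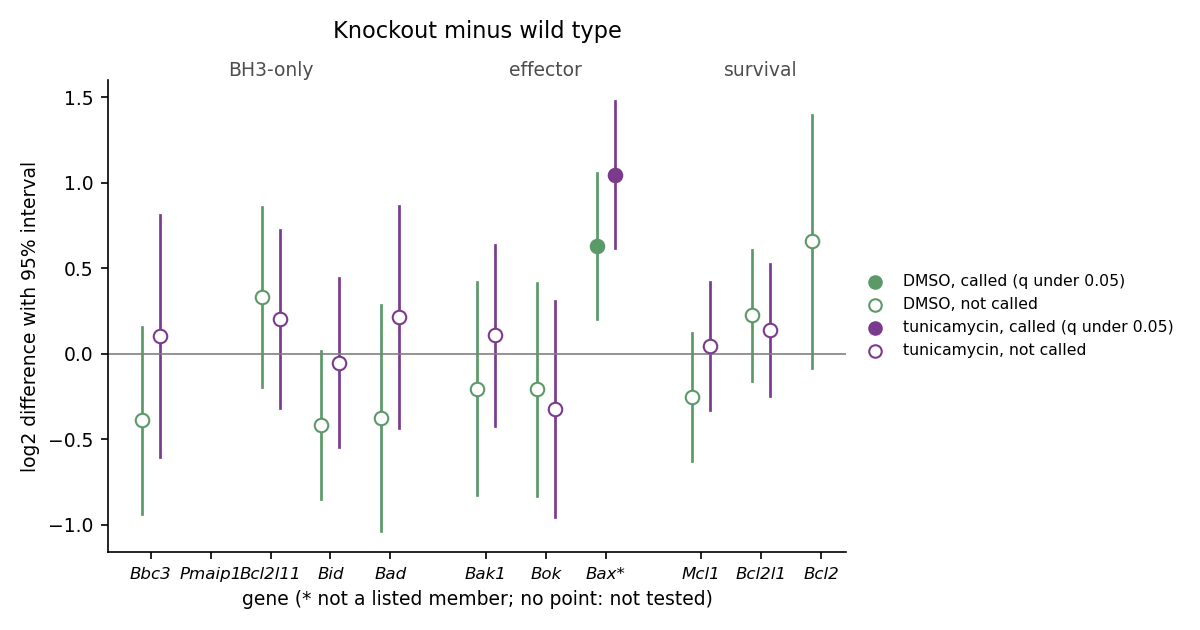
Log2 difference of knockout against wild type for each tested member and Bax, with DMSO and with tunicamycin, with 95% intervals from the test statistic in the authors' deposited table; filled points passed q under 0.05. Bax alone is filled, at 0.63 and 1.05, and no interval of another gene shown lies wholly on one side of 0.

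Around the 10 members, 67 genes of the cell-death pathway were read in 6 lists. In wild type 61 of them were tested with tunicamycin, 12 rose and 21 fell (54.1% called, beside 37.1% of all loci). In the knockout 61 were tested, 14 rose and 16 fell (49.2% called, beside 33.0% of all loci). The other BCL2 family genes gave 5 lower and 0 higher calls of 8 tested in wild type, and 3 lower and 1 higher of 9 in the knockout. With a minimum of 2-fold these 5 and 4 calls became 3 and 2, and at q under 0.01 the 4 in the knockout became 1.

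Bmf, a BH3-only gene whose product is tethered to the cytoskeleton until cells are stressed, stood at 3.27 FPKM after DMSO and 0.737 FPKM after tunicamycin in wild-type livers, and 1.93 and 0.662 FPKM in knockout livers. It fell by 2.15 in wild type and by 1.55 in the knockout on the log2 scale. Bik, a BH3-only gene whose protein resides at the ER, stood at 3.79, 1.14, 2.33 and 1.08 FPKM in the same order and fell by 1.73 in wild type. In the knockout the difference of Bik was -1.11 without a call. Bnip3, a mitophagy receptor with a BH3-like stretch, stood at 95.02, 47.0, 61.0 and 41.8 FPKM and fell by 1.02 and by 0.55. Bmf and Bnip3 were also lower in the knockout than in wild type with DMSO, by -0.76 and -0.64, calls that are also lost when q is adjusted within that comparison. The survival gene Bcl2l2 (BCL-W), merged with Pabpn1 at its locus, fell by 0.71 and by 0.64. In the knockout the 1 higher call was Bcl2l14, at 0.199 FPKM with DMSO and 0.692 with tunicamycin.

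Downstream of the mitochondrial step, the apoptosome and caspase list had 6 lower calls and 0 higher calls of 15 tested in wild type, and 5 lower and 1 higher in the knockout. With a minimum of 2-fold 2 and 3 calls were left. Casp9, the initiator caspase that the apoptosome activates, stood at 7.31 FPKM after DMSO and 2.27 FPKM after tunicamycin in wild-type livers, and 6.92 and 2.62 FPKM in knockout livers. It fell by 1.69 and by 1.40 on the log2 scale. Casp6, a caspase gene, stood at 17.2 FPKM after DMSO and 9.69 FPKM after tunicamycin in wild-type livers, and at 13.1 and 7.18 FPKM in knockout livers, and fell by 0.83 and by 0.87. Apaf1, the scaffold of the apoptosome, was at 0.66 and 0.41 without a call. The higher call of the knockout was Casp12, a caspase gene tied to the ER in rodents. It stood at 0.959, 0.818 and 0.941 FPKM in both wild-type groups and the DMSO knockout group, and at 2.54 FPKM in the tunicamycin-treated knockout. That group is also the one in which the muscle, adrenal and fat markers summed to 281, 1019 and 99.4 FPKM, and their part in the Casp12 result was not tested.

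The caspase inhibitors were split, with 2 higher and 2 lower calls of 6 in wild type and 2 higher and 1 lower in the knockout. Cflar, which encodes FLIP, the inhibitor of caspase-8 at death receptors, stood at 20.7, 49.1, 18.1 and 41.5 FPKM and rose by 1.25 and 1.20. Birc2 (cIAP1), a ubiquitin ligase of TNF receptor complexes, read 10.9, 21.5, 8.94 and 17.6 FPKM and rose by 0.97 and 0.98. Its relative Birc3 (cIAP2) fell by 1.15 and by 1.08. Birc5 (survivin), a gene of dividing cells, fell by 2.23 in wild type, from 3.53 to 0.755 FPKM.

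Of 8 death receptor and adaptor genes, 5 fell and 1 rose in wild type, and 2 fell and 1 rose in the knockout. The 6 calls in wild type became 2 at q under 0.01 and 3 with a minimum of 2-fold, and the 3 in the knockout became 1 with a minimum of 2-fold. Fas, the receptor whose signal reaches mitochondria through BID, stood at 16.9, 7.40, 15.4 and 7.93 FPKM and fell by 1.19 and by 0.96. Tnfrsf10b, the mouse TRAIL receptor gene and a known target of CHOP and p53 in human cells, stood at 0.906 FPKM after DMSO and 0.344 FPKM after tunicamycin in wild-type livers, and 2.31 and 2.32 FPKM in knockout livers. Like Bax it was high in both knockout groups, and knockout exceeded wild type by 1.35 with DMSO and 2.75 with tunicamycin on the log2 scale, both called, the first of them not when q is adjusted within the comparison. In wild type Tnfrsf10b fell by 1.40 with tunicamycin. The adaptors Tradd and Fadd fell by 1.00 and by 0.72 in wild type, Traf2 rose by 0.74 and 0.65, and the TNF receptor gene Tnfrsf1b fell by 0.50 and by 1.10.

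Regulators known to act on BH3-only genes included the 3 largest rises among the 6 lists. Of 14 tested in wild type 7 rose and 1 fell, and of 13 in the knockout 7 rose and 2 fell, 9 calls that became 5 with a minimum of 2-fold. Ddit3 (CHOP), an ER-stress transcription factor known to act on Bcl2l11 and Bbc3 and to repress Bcl2, stood at 15.2 FPKM after DMSO and 2385 FPKM after tunicamycin in wild-type livers, and 10.03 and 2066 FPKM in knockout livers. It rose by 7.29 and 7.69 on the log2 scale, in the same groups in which Bbc3 was at its lowest and the differences of Bcl2l11 were 0.12 and -0.01. Whether CHOP acted on either gene in these livers was not tested. Atf3, a stress factor of the same protein class, rose by 7.26 and 7.94, and Trib3, a pseudokinase gene downstream of CHOP, by 6.00 and 6.10. Ern1, which encodes the ER stress sensor IRE1, rose by 1.90 and 1.32. Foxo1, which encodes an insulin-restrained activator of BH3-only genes, fell by 1.26 and by 1.56. Between genotypes with tunicamycin, Atf3, Egr1 and Ern1 were the 3 of this list called lower in the knockout, by -0.60, -0.58 and -0.59. With DMSO, Mdm2 (0.59) and Egr1 (0.93) were higher and Atf3 (-1.29) lower in the knockout. All 6 of these calls are lost with adjustment within the comparison.

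The last list held genes of MCL1 turnover and of membrane partners, with 2 higher and 2 lower calls of 10 in wild type and 2 higher and 3 lower in the knockout. With a minimum of 2-fold these became 2 and 2, and at q under 0.01 the 5 in the knockout became 3. Huwe1, a ubiquitin ligase that marks MCL1 for degradation, stood at 26.0, 74.9, 28.4 and 60.6 FPKM and rose by 1.53 and 1.09. Usp9x, a deubiquitinase that stabilizes MCL1, read 12.7, 36.1, 12.1 and 28.9 FPKM and rose by 1.51 and 1.25. Genes of opposite known action on the MCL1 protein thus both rose, beside Mcl1 messenger RNA between 36.7 and 46.4 FPKM. Bcap31, an ER membrane protein gene, fell by 0.93 and by 0.71, and Vdac1, a channel gene of the outer mitochondrial membrane, by 0.61 and by 0.54. Btrc, a subunit gene of a ubiquitin ligase, fell by 0.69 in the knockout.

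**Figure D5:**
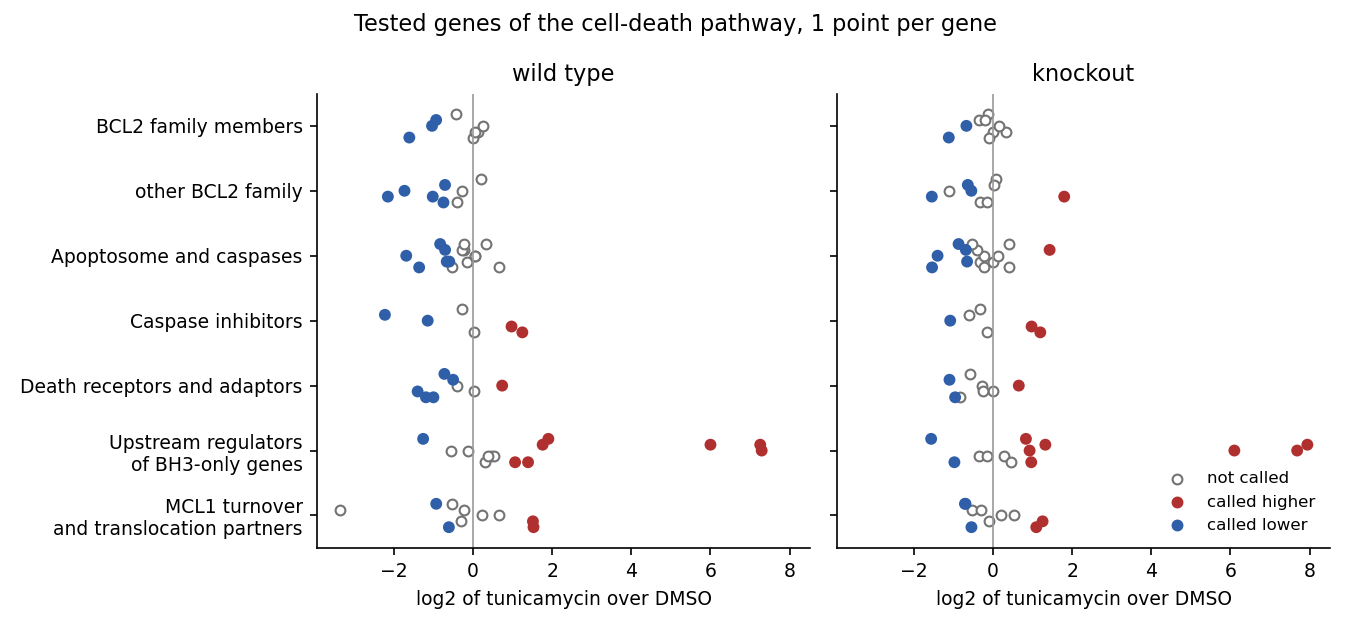
Log2 of tunicamycin over DMSO for each tested gene of the 10 members and the 6 pathway lists in wild type (left) and the knockout (right), 1 point per gene, coloured where q in the authors' deposited table was under 0.05. Apoptosome and caspase genes are called lower in 6 of 15 cases in wild type, and the 3 points at 6 or more are Ddit3, Atf3 and Trib3.

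Between genotypes few pathway genes were called. With DMSO 4 of 60 tested were higher and 3 lower in the knockout (11.7%, beside 2.86% of all loci), and with tunicamycin 3 of 61 were higher (Bax, Casp12 and Tnfrsf10b) and 3 lower (9.84%, beside 5.92%). All the DMSO calls are lost with adjustment within the comparison, or with at least 1 FPKM required in the higher group. The 3 lower calls with tunicamycin are lost in the same settings. With DMSO, lane and genotype cannot be told apart. The comparisons share groups, so their counts are not independent of each other.

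The 3 members with the widest range over the groups, Bbc3, Bid and Bad, were each matched with the 3 genes of the most similar profile, by distance between centred log2(FPKM + 1) values over the 4 groups among 11501 loci. For Bbc3 these were Atl3 (distance 0.0285), Tmprss6 (0.0358) and Ldha (0.0410). On that scale the wild-type tunicamycin difference of Bbc3 is -1.19, beside -1.61 from the FPKM alone, so the added 1 enters the match. Tmprss6, the liver protease gene that restrains hepcidin, read 181, 75.9, 143 and 80.4 FPKM, and Ldha, the glycolytic lactate dehydrogenase gene, 360.4, 160.1, 287 and 169 FPKM. For Bid they were Suds3 (0.0194), Cox6c (0.0295) and Dnajc28 (0.0435), and for Bad Vps29 (0.0264), Nudt14 (0.0621) and Ndufs8 (0.0686). Cox6c and Ndufs8 encode subunits of the respiratory chain, and Ndufs8 read 103, 56.1, 82.6 and 61.7 FPKM. With 4 pooled points a close profile is a description of these groups only.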

How the data were processed

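Poly(A) RNA of 12 mouse liver libraries in 4 groups of 3, formed from the sample titles, was compared. Per the submitters' processing notes, bcl2fastq, TopHat2 2.0.4, Cufflinks, Cuffdiff and mouse build mm9 were used. For the annotation, the filters, counting by strand and the normalization, the record is silent (not given in the sources used here). Per the file headers the authors' deposited table holds 1 FPKM value per locus and group, and per comparison a test score, which is the statistic of Cuffdiff, with its p-value and q-value. The 10 members, the 6 pathway lists of 67 genes and the 10 marker lists of 62 genes were chosen with earlier results of these data known.

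Because only group values were at hand, the authors' own Cuffdiff test was used, as laid down for that case. Log2 differences were computed from the FPKM, since some cells of the deposited fold column are not numbers. A gene was called at q under 0.05 with a test status of OK. Adjusting the deposited p-values by Benjamini-Hochberg across all 90828 tests (6 comparisons) gave the deposited q-values within 5.29e-07, and the smallest p-value is 5e-05. The SE of a log2 difference is its size divided by a normal deviate, taken as the test statistic over a scale of about 0.58 set from the deposited p-values, and the intervals are at 95%. The difference of both tunicamycin responses used both SEs, a two-sided normal p and a Benjamini-Hochberg adjustment over 14510 loci. On simulated data for that comparison and number of loci it recovered 74% of 4-fold and 19% of 2-fold differences. Since nothing in the labels says how the 3 libraries of a group arose, p-values measure the spread Cuffdiff saw, which may be technical.

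All 10 members were described. Of each pathway list the called genes were named, up to 4 with the widest log2 difference and at least 1 FPKM in the higher group, and Bax in addition. Apaf1 and Bcl2l14, which the rule did not take, were named after their values were seen. Some genes that the rule took are not reported here by name. Promoter windows were matched by symbol in RefSeq tables (GRCm38.p6), and mm9 positions were never converted. Windows on chromosome 18, and with them Pmaip1, were left out of the members' set. The software was pandas 2.3.3, numpy 2.4.6, matplotlib 3.10.9 and scipy 1.17.1 under Python 3.11.15. Depth per library is unknown. The alternatives were other q thresholds, adjustment within a comparison, a filter at 1 FPKM, a minimum of 2-fold, a pseudocount, and other scalings.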

Additional observations from a re-analysis of the deposited data

Results flagged for a closer look

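Among the 10 members and the pathway genes tested, Egr1, an immediate early transcription factor gene known to act on Bbc3 and Bcl2l11, was the one whose tunicamycin response differed between genotypes. Its level was 7.14 FPKM after DMSO and 10.4 FPKM after tunicamycin in wild-type livers, and 13.6 and 6.92 FPKM in knockout livers. The response was 0.54 on the log2 scale in wild type, without a call, and -0.97 in the knockout, where it was called. The difference, knockout minus wild type, was -1.51 (SE 0.333, Benjamini-Hochberg q = 0.0014 over 14510 loci, from the Cuffdiff statistics). The knockout DMSO group enters it, and there the lane cannot be told apart from the group. The endothelial markers moved with it: their sums were 45.1 and 69.5 FPKM in wild-type livers and 77.6 and 54.3 FPKM in knockout livers, and 5 of the 7 (Kdr, Stab1, Lyve1, Cdh5 and Stab2) had a called response difference, from -1.02 to -1.34. Of the 6 stellate cell markers, Acta2 had one of -2.07 and Des one of 1.75. Des read 7.53 FPKM in the knockout with tunicamycin, where the muscle markers summed to 281 FPKM, and 1.63 to 2.10 FPKM in the other groups. The part of endothelial, stellate and muscle cells in the Egr1 result was not tested.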

How the results depend on the processing

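With q under 0.01 the members called with tunicamycin were 2 in wild type (Bbc3 and Bid, without Bad) and 1 in the knockout (Bbc3), and with a minimum of 2-fold they were again 2 and 1. Adjustment within each comparison and a filter at 1 FPKM left 3, 2, 0 and 0 calls over the 4 comparisons, and no member was called between genotypes under any of these settings. For the response difference, both other settings also called 0. The Bax difference between genotypes with tunicamycin was called under all 4 of these settings, and that with DMSO under none of them. Calls over all loci were 423 between genotypes with DMSO and 105, 170, 99 and 105 with adjustment within the comparison, q under 0.01, the filter and 2-fold. With tunicamycin they were 883 and 557, 557, 457 and 534. For tunicamycin against DMSO a minimum of 2-fold took them from 5566 to 3372 in wild type and from 5121 to 3007 in the knockout. The 3 members of the other BCL2 family list called with DMSO between genotypes became 0 under all 4 settings, and the 3 lower regulators with tunicamycin also became 0. Of the 15 genes in the apoptosome and caspase list, 2 in wild type and 3 in the knockout were called with a minimum of 2-fold. The summed FPKM differed by -0.28 (log2) between tunicamycin and DMSO in wild type, by -0.17 in the knockout, and between genotypes by -0.25 with DMSO and -0.14 with tunicamycin. Scaled to it, Bbc3 read -1.33, Bid -0.75, Bad -0.65 and Mcl1 0.32 in wild type. Of 240 alternative values of single members 194 moved by at most 1 SE, 46 moved by more or had no SE, and 0 called values reversed. Among the settings counted is the sum over all loci of a symbol. Each member stands at 1 locus, so that setting returns the main value by construction. Leaving out each library and scaling to ERCC spike-ins were not run, since the table holds 1 pooled value per group and 0 ERCC loci. No paired analysis was possible because the table carries no values per library. Depth, and with it the precision of low members such as Pmaip1 and Bcl2, is unknown.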

Other observations

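Trp53, the gene of p53, was looked at after its values were seen, because Bax, Bbc3, Tnfrsf10b and Mdm2 are known p53 targets. Its symbol stands at more than 1 locus, and the locus used read 9.58 FPKM after DMSO and 20.01 FPKM after tunicamycin in wild-type livers, and 9.79 and 19.1 FPKM in knockout livers. It rose by 1.06 and 0.97 on the log2 scale with tunicamycin, and between genotypes its differences were 0.03 and -0.06, without a call. The 4 targets did not share 1 pattern in these values. Bax and Tnfrsf10b were called higher in the knockout with both treatments, Mdm2 with DMSO alone, and Bbc3 with neither, and whether these genes differ from each other was not tested.

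The order of members by level differed between treatments in 1 place common to both genotypes. Bbc3 stood above Bcl2l11 in both DMSO groups, at 5.12 against 2.26 FPKM and 3.90 against 2.84 FPKM, and below it in both tunicamycin groups, at 1.68 against 2.45 and 1.80 against 2.82 FPKM. The order was not tested.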
